A study of Mus musculus with 6 samples.

Results

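The genes described here are the machinery by which a cell senses oxygen at the level of transcription, together with a pair of mitochondrial receptors that this machinery induces. They were chosen by name and number 10: Hif1a, Epas1 and Arnt, which encode the subunits of hypoxia-inducible factor (HIF), Egln1, Egln2 and Egln3, which encode its prolyl hydroxylases, Hif1an, the asparaginyl hydroxylase, Vhl, the recognition subunit of the ubiquitin ligase that removes hydroxylated HIF, and the mitophagy receptors Bnip3 and Bnip3l. Of the 10, 9 had a probe set that carried their symbol alone, out of 22180 genes with such a probe set. The exception was Bnip3l, whose probe set also carries the symbol of a pseudogene and which is therefore given no value. Where a gene had several probe sets, the one with the highest mean over all 6 arrays stood for it, and all 9 genes were bright enough to enter the comparison of 14787 genes.

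RNA was measured on single-colour whole-transcript arrays in CD4 T cells of OT II transgenic mice, which carry a T cell receptor specific for a peptide of ovalbumin. The mice were 12 to 16 weeks old and 6 in number, and their T cells, taken from spleen and lymph nodes, were stimulated for 72 hours with that peptide and antigen-presenting cells, in RPMI-1640 with dialyzed serum, before CD4+ cells were purified again. The control group (3 arrays) had complete medium and the low arginine group (3 arrays) had medium with 1% of the normal arginine, 12 uM. The comparison asks how stimulated T cells short of arginine differ from T cells with a normal supply; the labels name no change of oxygen.

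As background, HIF is a dimer of an oxygen-labile alpha subunit (HIF1A, or EPAS1, also called HIF2A) and the stable beta subunit ARNT. With oxygen and 2-oxoglutarate at hand, EGLN enzymes hydroxylate prolines of the alpha subunit, VHL binds the hydroxylated form and the protein is degraded, while HIF1AN hydroxylates an asparagine and blocks recruitment of coactivators. EGLN3, EGLN1 and BNIP3 are themselves HIF targets in many cell types, so that a HIF response raises its own brakes, and in activated T cells HIF1A can accumulate without hypoxia, downstream of the T cell receptor and mTORC1. Because HIF is controlled largely through protein stability, the RNA levels given here do not measure the amount of HIF protein.

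Values are log2 expression values, differences are low arginine minus control on that scale, and each group mean is given with its SD over 3 arrays. A gene counts as changed (rose or fell) where limma's test over all genes tested gave a Benjamini-Hochberg adjusted p below 0.05. By that measure 4 of the 9 genes fell in low arginine (Bnip3, Egln3, Egln1 and Hif1a), 0 rose and 5 did not pass. At an unadjusted p below 0.05 limma had 6 lower and 0 higher, against 2061 lower and 1971 higher of 14787 genes tested. At the adjusted threshold, 12.2% of all genes tested passed, 6.98% lower and 5.19% higher. That split was 1032 lower and 767 higher in genes, and 1190 and 535 once the arrays had been centred on their 75th percentiles. The 9 genes were put together with the results of this comparison known, so their differences are given as a description, with the 95% interval of the fit and without a p value, and nothing is read from the share of them that passed. The groups did not overlap for 5 of the 9, all lower in low arginine. Of all genes tested, 16.2% had groups that did not overlap in that same direction.

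**Figure D1:**
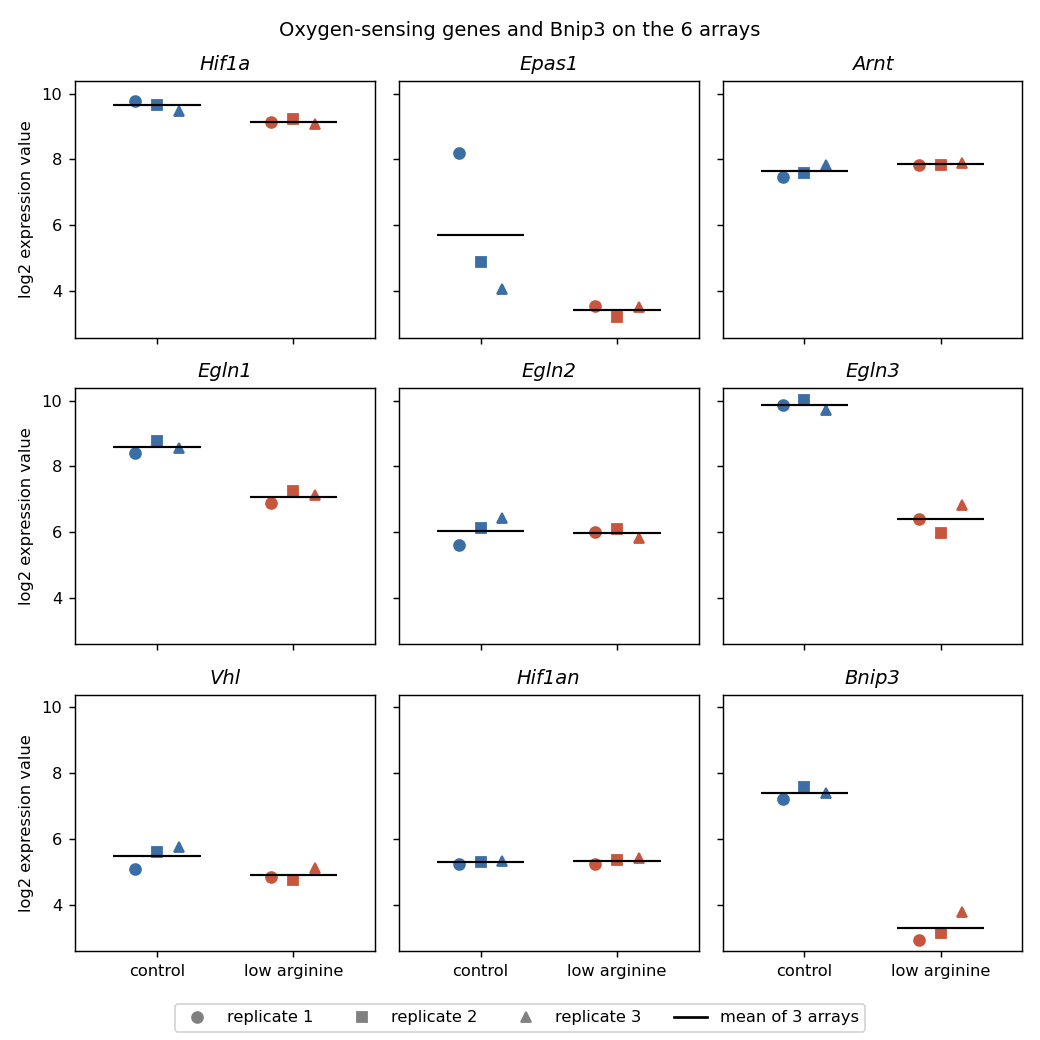
Log2 expression value (vertical axis, the same in all panels) of each of the 9 genes in the 3 control and 3 low arginine arrays; marker shapes give the replicate number and lines the group means. The control and low arginine points of Bnip3, Egln3 and Egln1 stand far apart, those of Hif1a closer together, and Epas1 has 1 control array at 8.20 above the other 2; levels of different genes are not comparable, since each has its own probes.

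The promoters of the 4 genes that fell are shown because Bnip3, Egln1 and Egln3 are textbook HIF targets. The sequences are RefSeq's (build GRCm38.p6), the 250 bases before the start site in the table, 5′ to 3′ in the direction of the gene, with every match to the HIF core letters ACGTG or GCGTG, on either strand, in capitals (CACGT and CACGC are the matches read from the opposite strand).
Bnip3, chr7:138909507-138909756, minus strand: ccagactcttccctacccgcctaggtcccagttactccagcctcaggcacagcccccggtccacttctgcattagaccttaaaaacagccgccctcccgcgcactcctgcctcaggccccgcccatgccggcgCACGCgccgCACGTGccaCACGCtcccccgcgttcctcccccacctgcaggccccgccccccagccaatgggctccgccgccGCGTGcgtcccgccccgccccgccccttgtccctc
Egln3, chr12:54203875-54204124, minus strand: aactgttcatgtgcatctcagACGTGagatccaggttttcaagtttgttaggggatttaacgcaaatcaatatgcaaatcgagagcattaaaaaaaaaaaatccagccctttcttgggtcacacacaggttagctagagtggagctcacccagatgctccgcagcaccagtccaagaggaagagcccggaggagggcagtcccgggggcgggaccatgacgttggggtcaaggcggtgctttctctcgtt
Egln1, chr8:124949255-124949504, minus strand: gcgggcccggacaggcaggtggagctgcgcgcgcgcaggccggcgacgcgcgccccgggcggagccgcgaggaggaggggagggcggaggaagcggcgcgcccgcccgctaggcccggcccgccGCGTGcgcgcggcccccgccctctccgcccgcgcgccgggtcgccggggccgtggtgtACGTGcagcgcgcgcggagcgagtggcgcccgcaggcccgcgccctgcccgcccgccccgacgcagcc
Hif1a, chr12:73907617-73907866, plus strand: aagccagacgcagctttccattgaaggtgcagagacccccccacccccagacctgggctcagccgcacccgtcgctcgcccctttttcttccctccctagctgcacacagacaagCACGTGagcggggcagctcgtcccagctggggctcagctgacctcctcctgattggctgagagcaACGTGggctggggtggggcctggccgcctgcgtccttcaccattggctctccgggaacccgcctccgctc
The Bnip3 window held 5 core matches, of which 2 overlap in the palindrome CACGTG, which reads as ACGTG on both strands; that palindrome began 108 bases before the start site. The Egln3 window held 1 match, far from the start site (229 bases before it), the Egln1 window 2 and the Hif1a window 3, again with 1 palindrome. The Hif1a window precedes a start site at 73907867, which lies inside the gene, whose outer edge is at 73901324. No window before that outer edge was examined. Among the genes that did not pass, the windows of Vhl and Hif1an held 0 matches, Arnt 1, and the 2 windows of Egln2 held 4 and 1. Of 32841 promoter windows of the same length in the table, 38.6% held at least 1 core match, 16.7% at least 2, 1.01% at least 5 and 6.02% the palindrome. A match is a string of letters and not a bound site; 8 of the 10 genes had a promoter in the table.

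Bnip3, the outer mitochondrial membrane protein that binds LC3 family proteins and marks mitochondria for autophagy, had the largest difference of the 9. Its control arrays lay at 7.21, 7.59 and 7.40 and its low arginine arrays at 2.94, 3.13 and 3.79. All 3 low arginine arrays lay far below the lowest control, with a gap of 3.42 between the groups, although low arginine replicate 3 was higher than the other 2. The means were 7.40 ± 0.19 (SD, n = 3) and 3.29 ± 0.45, a difference of -4.11 (95% interval of the limma fit -4.63 to -3.59), or 17.3-fold lower with an interval of 12.1 to 24.8. Among 14787 genes tested it ranked 2 from the largest fall. The low arginine mean stood 0.80 above the limit of 2.48 below which genes were left out as dim. The arrays came with no detection calls, so it was not tested whether these low values lie above background, and the size of the fall is less certain than its direction.

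The prolyl hydroxylases parted into 2 that fell and 1 that did not pass. Egln3 (also called PHD3), the family member most strongly induced by HIF in many cells, lay at 9.87, 10.03 and 9.70 in the controls. In low arginine it lay at 6.41, 5.97 and 6.81, with no overlap and a gap of 2.89 to the lowest control. The means were 9.87 ± 0.17 (SD, n = 3) and 6.40 ± 0.42, a difference of -3.47 (95% interval -3.96 to -2.98) or 11.1-fold lower, and the gene ranked 9 from the largest fall. Unlike Bnip3, Egln3 stayed well clear of the dim limit in low arginine, by 3.91.

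Egln1 (PHD2), the main oxygen sensor that sets HIF1A stability in most cells, fell by less. It lay at 8.42, 8.78 and 8.55 in the controls and at 6.87, 7.24 and 7.11 in low arginine. The groups were apart by 1.18, and the spread within each group was alike (SD 0.18 and 0.19, n = 3). The difference was -1.51 (95% interval -1.84 to -1.17), or 2.85-fold lower. Egln2 (PHD1), which is not known as a general HIF target, did not pass. Its control arrays, at 5.60, 6.11 and 6.43, spanned the low arginine arrays at 6.00, 6.09 and 5.83. The difference of -0.08 had an interval of -0.56 to 0.40, so that changes within that range were not excluded by these arrays.

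Hif1an, which acts on the transactivation domain of the alpha subunits, showed the smallest difference of the 9. Its values were 5.25, 5.29 and 5.34 in the controls and 5.25, 5.35 and 5.41 in low arginine. The groups overlapped nearly completely, with a difference of 0.04 (95% interval -0.19 to 0.28). Vhl lay at 5.09, 5.59 and 5.75 in the controls and at 4.85, 4.75 and 5.11 in low arginine. The highest low arginine array lay just above control replicate 1, so the groups overlapped, and the difference of -0.57 (interval -1.01 to -0.13) did not pass. Without control replicate 1 it was -0.76 and passed.

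**Figure D2:**
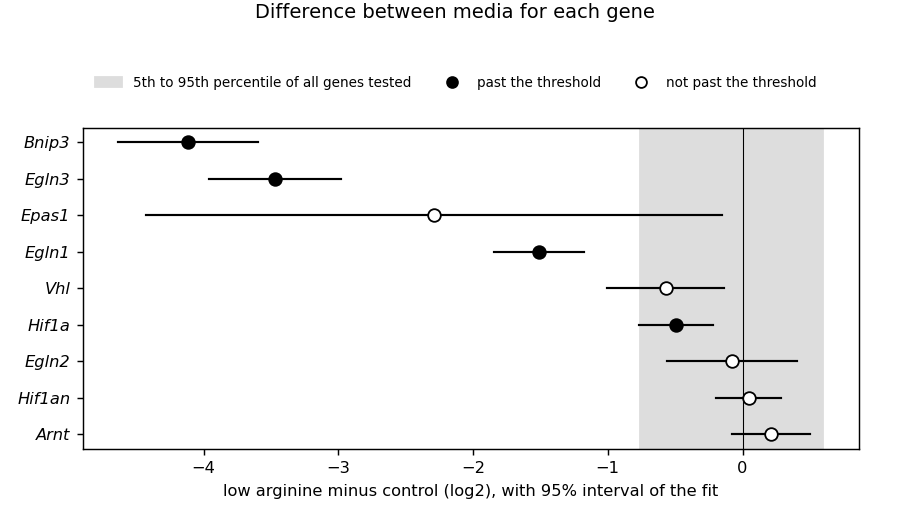
Low arginine minus control (horizontal axis, log2) for each of the 9 genes, with the 95% interval of the limma fit; filled points passed the threshold, and the grey band spans the 5th to the 95th percentile of all genes tested (-0.76 to 0.60). Bnip3, Egln3 and Egln1 lie outside the band with their whole intervals, the point of Hif1a lies inside it, and the interval of Epas1 runs from -4.43 to -0.15.

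Among the HIF subunits, Hif1a, the alpha subunit of activated T cells, was slightly lower in low arginine. Its control arrays lay at 9.79, 9.66 and 9.48 and its low arginine arrays at 9.15, 9.22 and 9.08. The groups did not overlap, by a narrow gap of 0.27. The means were 9.64 ± 0.15 (SD, n = 3) and 9.15 ± 0.07, a difference of -0.49 (95% interval -0.77 to -0.22), or 1.41-fold lower with an interval of 1.17 to 1.70. With arrays left out in turn, it did not pass without control replicate 2 (-0.49) or without low arginine replicate 1, 2 or 3 (-0.50, -0.53 and -0.46). A second, dimmer probe set of Hif1a, at 5.27, 6.01 and 5.64 in the controls, lay at 4.97, 4.73 and 4.68 in low arginine, a difference of -0.85 (interval -1.28 to -0.42) with no overlap either.

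Arnt, the partner of both alpha subunits, did not pass. Its control arrays lay at 7.47, 7.60 and 7.85 and its low arginine arrays close together at 7.84, 7.82 and 7.89. Control replicate 3 lay inside the low arginine range, and the difference was 0.21 (95% interval -0.08 to 0.50).

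Epas1, the HIF2A subunit best known from endothelium and from the kidney cells that make erythropoietin, varied more among the controls than between the media. Control replicate 1 stood at 8.20, control replicates 2 and 3 at 4.88 and 4.07, and the low arginine arrays at 3.54, 3.22 and 3.51. Every low arginine array was below every control, but the controls spanned 4.13 and the low arginine arrays 0.32. The means were 5.71 ± 2.19 (SD, n = 3) and 3.42 ± 0.18, and the difference of -2.29 had an interval of -4.43 to -0.15 and did not pass. Without control replicate 1 the difference was -1.05 and passed. The low arginine mean was 0.94 above the dim limit. The excess of control replicate 1 over the mean of the other 2 controls, 3.73, was the largest of all 14787 genes tested. Of 6 endothelial markers, Pecam1, which T cells also express, lay at 6.88 in control replicate 1 and at 7.08 and 6.76 in the other controls. In control replicate 1 Cdh5 lay at 2.73, Kdr at 2.67, Tek at 2.24, Emcn at 1.91 and Tie1 at 2.37, all close to the dim limit of 2.48 or below it. The part of other cells in the level of Epas1 was not tested.

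Control replicate 1 was also mostly the lowest control over the 9 genes and the HIF target genes, but it was not low over every list of the pathway. Of the 9 genes it was the lowest control in 6 (Arnt, Egln1, Egln2, Hif1an, Vhl and Bnip3), the highest in 2 (Hif1a and Epas1) and between the others in Egln3. It was the lowest control in 37.5% and the highest in 40.1% of all genes tested. Over 32 HIF target genes described next, which are not among the 9, it was the lowest control in 22 and the highest in 10, and its median difference from the other controls was -0.51, against 0.01 over all genes tested. Over the lists described after them, that median was -0.24 for other oxygenases and -0.19 for subunits and coactivators. It was 0.005 for mitophagy genes, 0.08 for HIF1A synthesis and 0.25 for HIF stability.

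**Figure D3:**
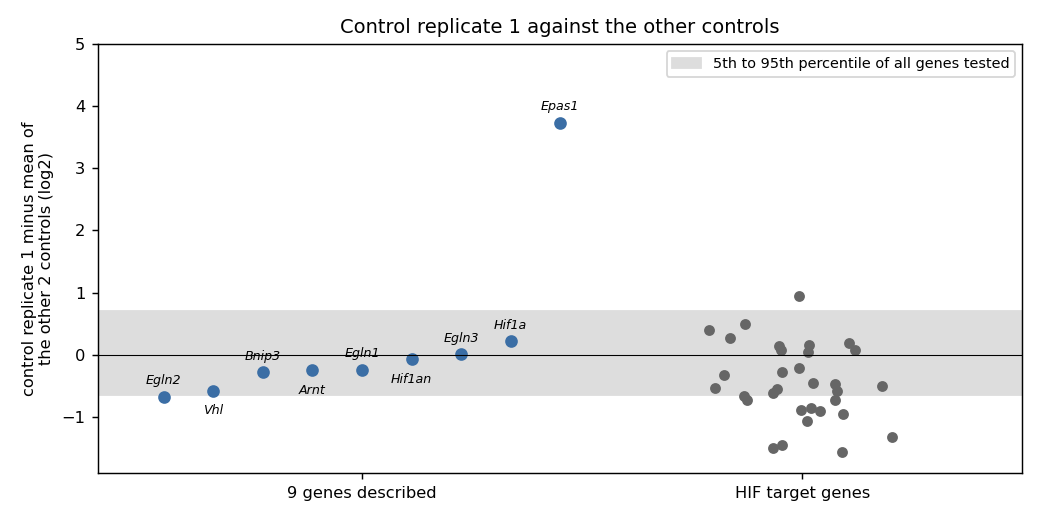
Control replicate 1 minus the mean of the other 2 controls (vertical axis, log2) for the 9 genes and for the 32 HIF target genes; the grey band spans the 5th to the 95th percentile of all genes tested (-0.65 to 0.71). Epas1 lies at 3.73, above every other point, while most HIF target genes lie below 0.

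Most of a list of genes that HIF is known to induce fell in low arginine. Of 32 tested HIF targets (36 were listed), 24 fell and 0 rose by limma, when 6.98% of all genes tested fell and 5.19% rose. At an unadjusted p below 0.05, 28 of the targets were lower and 0 higher, against 2061 lower and 1971 higher of 14787 genes tested. The median difference of the targets was -1.36, against 0.01 over all genes tested. Slc2a3, a glucose transporter, fell by 4.02 (limma adjusted p = 6.37e-05) and Aldoc, a glycolytic aldolase, fell by 3.09 (0.00474). Anxa2, a membrane-binding annexin, fell by 2.91 (limma adjusted p = 5.75e-04) and Gbe1, the glycogen branching enzyme, fell by 2.80 (0.00557). The differences that passed ran from -4.02 to -0.54, and 19 of the 24 genes fell by at least 1. The 8 targets that did not pass were Vegfa, Car9, Adm, Kdm3a, Pfkfb4, Bhlhe40, Hmox1 and Rbpj, with differences from -1.12 to 0.34. Many of these targets are glycolytic genes, and the list was written with their falls known from an earlier look at these data. Without control replicate 1, in which most of them were lowest among the controls, 29 of the 32 fell and 1 rose (Rbpj), with 11.5% of all genes lower in that fit.

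The other HIF subunits and the coactivators split by direction. Of 8 tested, 2 fell and 3 rose, when 6.98% of all genes tested fell and 5.19% rose. Their median difference was 0.15. Hif3a, an alpha subunit that can restrain the other ones and is itself induced in hypoxia, fell by 1.16 (limma adjusted p = 0.00427), from 4.45 ± 0.24 (SD, n = 3) to 3.29 ± 0.05. Cited2, a HIF-induced inhibitor that competes with HIF1A for the coactivators CBP and p300, fell by 1.30 (0.00344). Crebbp, which encodes CBP, rose from 9.05 ± 0.05 to 9.71 ± 0.06, by 0.66 (0.00853). The nuclear receptor coactivators Ncoa1 and Ncoa2 rose by 0.79 (0.0284) and 0.50 (0.0405). These 2 calls were lost when control replicate 2 or any 1 of the low arginine arrays was left out, which left 3 of the 8 past the threshold, and that of Ncoa2 was also lost in 4 other alternatives, 3 of them scalings of the arrays. Ep300, Arnt2 and Smarca4 did not pass.

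Among the partners of Vhl and other proteins that set HIF stability, 9 were tested, including the ligase subunits Elob, Eloc and Cul2. Of these 1 passed, a share near the 12.2% of all genes: Siah1a, a ubiquitin ligase that targets prolyl hydroxylases, rose by 1.00 (limma adjusted p = 0.0171), from 5.65 ± 0.37 (SD, n = 3) to 6.65 ± 0.14. The median over these 9 was -0.02, and Siah1a lost its call when control replicate 2 or any 1 of the low arginine arrays was left out. Among 9 other oxygenases that use oxygen and 2-oxoglutarate or sense oxygen, among them the histone demethylases Kdm5a, Kdm5c and Kdm6a, limma passed 0 (differences from -0.61 to 0.35; 1 lower and 1 higher at an unadjusted p below 0.05). Without control replicate 1, 2 of them passed, both lower, when 22.5% of all genes did. Among 10 genes upstream of HIF1A synthesis, including Mtor, Rptor, Stat3 and Myc, 1 passed, when 12.2% of all genes did. It was the NF-kappaB subunit Rela, higher by 0.37 (limma adjusted p = 0.0496). That call sat at the threshold and was lost in 10 of 15 alternatives. At an unadjusted p below 0.05, limma had 4 of these 10 higher and 0 lower, against 1971 higher and 2061 lower of 14787 genes tested.

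**Figure D4:**
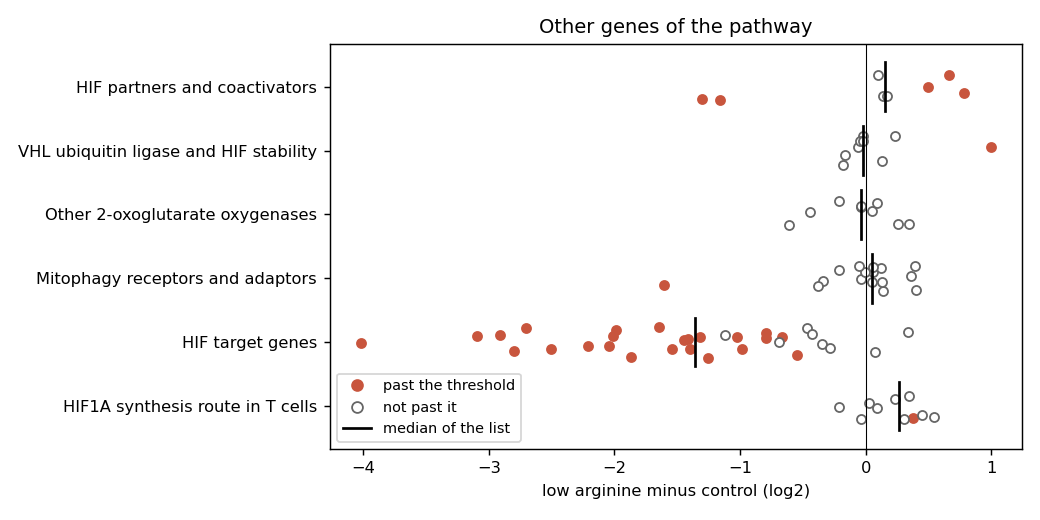
Low arginine minus control (horizontal axis, log2) for each tested gene of the 6 lists around the HIF pathway; filled points passed the threshold and the black bar is the median of the list. The HIF targets spread down to -4.02 with a median of -1.36, while the medians of the other 5 lists lie between -0.04 and 0.27.

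Bnip3 was set against the other receptors and adaptors of mitophagy. Of 16 tested, 1 passed, a share below the 12.2% of all genes tested. It was Gabarapl1, an LC3 family gene of the autophagosome membrane, which fell from 5.04 ± 0.22 (SD, n = 3) to 3.43 ± 0.45, by 1.61 (limma adjusted p = 0.00702). The receptors Fundc1 (0.06), Bcl2l13 (0.13) and Fkbp8 (-0.34) and the kinase Pink1 (0.39) did not pass, and the median of the list was 0.05. Without control replicate 1, 2 of the 16 passed, 1 in each direction, when 22.5% of all genes did. The fall of Bnip3, a gene chosen with its result known, exceeded that of each of the 16, whose lowest difference was the -1.61 of Gabarapl1. This is a description only, and Bnip3l, which has no value here, could not be included.

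Likeness to a gene was measured over the genes tested, leaving out the 9 described here and predicted genes, as the root mean square difference between log2 values centred over the 6 arrays, which is small where 2 genes rise and fall together by the same amount. Nearest to Bnip3 were Slc2a3 (0.38), Mt1 (0.49), Scd1 (0.53), Ier3 (0.53) and Mt2 (0.58). Nearest to Egln3 were Emilin2 (0.41), Ak4 (0.42), H2-Ab1 (0.45), Slc2a3 (0.46) and Mt1 (0.46). Bnip3 and Egln3 themselves, left out of these rankings, lay 0.39 apart. That is nearer to Bnip3 than every ranked gene but Slc2a3, and nearer to Egln3 than every ranked gene. No other pair among Bnip3, Egln3, Egln1 and Epas1 was as close. Several pairs among the rest of the 9 genes lay closer still, such as Arnt and Hif1an (0.12). Nearest to Hif1a were Slc25a5 (0.03), Grk5 (0.03), Cyb5r3 (0.04), Klhdc3 (0.04) and Cox8a (0.05), all small differences of about the size of its own. With 6 arrays in 2 groups these values are set mainly by the difference between the media.

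**Figure D5:**
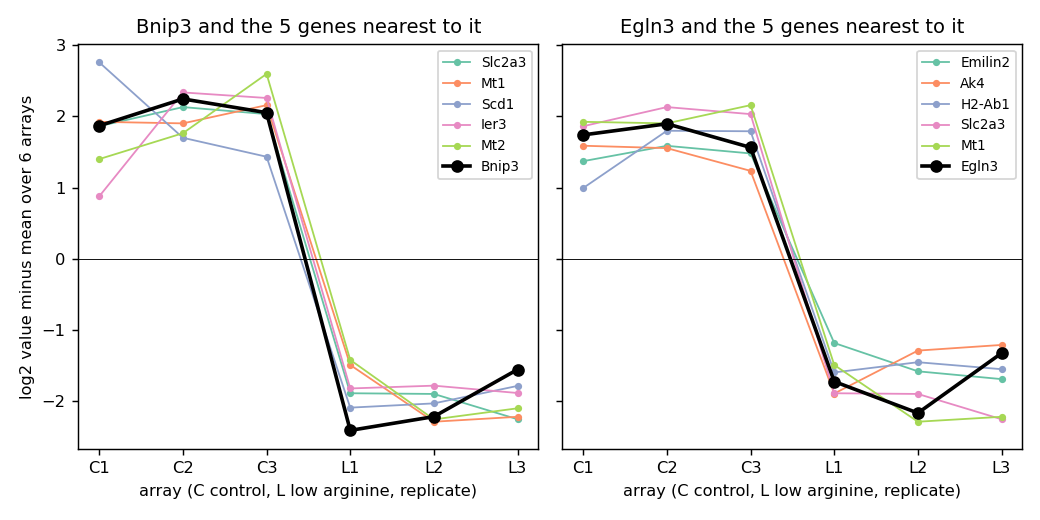
Log2 value minus the mean over 6 arrays (vertical axis) on the 3 control (C) and 3 low arginine (L) arrays for Bnip3 and Egln3 (black) and the 5 genes nearest to each (colours); the lines only guide the eye, since replicates have no order. All profiles step down between the media, and those of Bnip3 and Egln3 differ in which low arginine array is lowest.

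T cell markers were bright, with Cd3e at 10.77 ± 0.04 (SD, n = 3) in control and 10.87 ± 0.08 in low arginine. Cd4 lay at 10.33 ± 0.12 in control and 10.09 ± 0.18 in low arginine. Of 7 tested CD4 T cell markers, Trat1 alone passed (higher by 2.93). Of the markers of other cell types, 4 B cell, 7 myeloid, 3 CD8 or NK, 3 endothelial and 2 red cell genes were tested. Limma passed 0 of these markers, when 12.2% of all genes tested passed. At an unadjusted p below 0.05 it had 2 of them lower and 1 higher, against 2061 lower and 1971 higher of 14787 genes. The mean level of the 6 B cell markers measured ran from 2.56 to 2.69 in control and from 2.60 to 2.65 in low arginine, and that of the 10 myeloid markers from 2.59 to 2.70 and from 2.62 to 2.81. The brightest or most different of these lists were Cd79b and Blk, Fcer1g, Cd8b1 and Eomes, Pecam1 and Epor, of which Cd8b1 (6.90 to 6.24), Eomes (4.69 to 5.48) and, barely, Blk (2.81 to 3.09) had groups that did not overlap. Without control replicate 1, Cd8b1 (-0.85), Eomes (1.04) and Epor (-0.49) passed, as they did with array weights. Outside these lists, H2-Ab1, an MHC class II gene of antigen-presenting cells that was among the genes nearest to Egln3, and named after its values were seen, fell by 3.06 (limma adjusted p = 6.02e-04). Their part in the results was not tested. In RNA of purified but bulk cells, fewer cells with a transcript and less of it in each cell cannot be told apart. The labels do not say whether the arrays of a group came from separate mice or pools, and the p values measure the spread between these arrays.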

How the data were processed

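Gene expression in 3 control and 3 low arginine samples was taken from the deposited log2 expression values, 1 column per array. The authors processed the arrays with the oligo package, per the submitters' processing notes. Its version, the background correction and the normalization method: not given in the sources used here. Base 2 was inferred from the range (0.96 to 12.41). Sorted values of different arrays differed by at most 0.20. Arrays have no depth, and precision is limited by how many there are.

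A single symbol was carried by 23521 of 41345 probe sets in the platform's table, several by 1814 and none by 16010. The brightest probe set by mean over 6 arrays stood for each of 22180 genes; the dimmest 7393 (mean up to 2.48) were left out. The test was limma (version 3.58.1, R 4.3.3) with lmFit and eBayes, group as the only term, two-sided, with Benjamini-Hochberg adjustment over 14787 genes and a threshold of 0.05; the code was tested on simulated data. The genes described and the lists were chosen with earlier results of these data known. From each list, all genes past the threshold in a direction were named where there were 5 or fewer, otherwise the 4 largest, and from each marker list the brightest and the most different gene; likeness was ranked without predicted genes. Any further gene was picked once its values were known. Promoter sequences are RefSeq's (GRCm38.p6). Alternatives were 3 other scalings, 2 other dim filters, averaging the probe sets of each gene, a trended and robust prior, weighting arrays, a block for the replicate number, and each array left out once.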

Additional observations from a re-analysis of the deposited data

How the results depend on the processing

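The falls of Bnip3, Egln3 and Egln1 stayed past the threshold in all 15 alternatives, with differences of -4.37 to -3.94, -3.68 to -3.26 and -1.65 to -1.41. Hif1a lost its call in 5 of 15 (differences -0.67 to -0.42 over all 15), and Epas1 and Vhl gained one in 2, with array weights and without control replicate 1, so that 3 to 6 of the 9 genes were lower and 0 higher. The HIF targets past the threshold numbered 18 to 30. Leaving out each array in turn, all genes past the threshold numbered 500 to 3325, the subunits and coactivators 3 to 5, the HIF stability genes 0 to 1, the other oxygenases 0 to 2, the mitophagy genes 1 to 2 and the genes of HIF1A synthesis 0 to 3. With array weights these were 5514 for all genes, 2 for HIF stability, 4 for oxygenases, 4 for mitophagy and 6 for HIF1A synthesis. For HIF1A synthesis the count was 0 after quantile normalization, centring on the median or the 75th percentile, and with the limit on dim genes raised to a share of 0.5. With the replicate number as a block, 1568 genes passed, 1 of the oxygenases, 0 of the HIF1A synthesis genes and 3 of the 9 genes, Hif1a being lost; Ncoa2 (0.50), Rela (0.37) and Grk5 (-0.50) lost their calls too and Cd8b1 (-0.66) gained one. The same-numbered arrays deviated together by correlations of 0.12, 0.06 and 0.14, one of them under the limit set for taking the numbers as pairs, so the fit without the block was kept, though each of the 6 arrays correlated best with its own number. The Y-linked gene Eif2s3y also followed the numbers (replicates 1, 2 and 3 at 6.85, 4.75 and 2.59 in control and 5.89, 4.96 and 2.44 in low arginine). Both are hints from the data and not from the design that same-numbered arrays may share mice. Where a value moved, the cause was not tested. With 3 arrays a group and no detection calls, low levels such as those of Bnip3 and Epas1 in low arginine have no tested floor.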

Other observations

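The array in which Epas1 was highest, control replicate 1, also had the highest level among the controls of several T helper type 2 cytokines and related genes, which were looked up after the values were seen. Ranked by the excess of control replicate 1 over the other 2 controls, Epas1 (3.73) was followed by Il13 (3.48), Eif2s3y (3.18), Penk (2.93), Il24 (2.75) and Il10 (2.58), and Il9 ranked 7 (2.58) and Il4 10 (2.33). Il13, a type 2 cytokine, lay at 8.40 in control replicate 1, 5.45 and 4.38 in the other controls, and 4.60, 4.47 and 3.79 in low arginine. Il4, which drives type 2 differentiation, lay at 5.54 there, 3.04 and 3.38 in the other controls, and 2.98, 2.99 and 2.58 in low arginine. For Epas1, Il13 and Il4 that single array thus lay well above the other 5. That was not so for Il9, another type 2 cytokine, at 5.19 there, 2.55 and 2.68 in the other controls, and 6.59, 4.52 and 7.77 in low arginine. Eif2s3y and Uty are Y-linked genes and followed the replicate number in both media. Uty lay at 5.44, 4.14 and 1.97 in control replicates 1, 2 and 3 and at 5.53, 3.93 and 1.72 in the low arginine arrays of those numbers. The labels give no sex and do not tie the arrays to mice. Whether the type 2 cytokines or the Y-linked genes bear on the level of Epas1 was not tested.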
